A study of Mus musculus with 16 samples.

Results

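A set of 6 genes of type 2 immunity were followed in donor T cells from mice used to study ovarian graft-versus-host disease: the cytokine genes Il13, Il4 and Il5, the epidermal growth factor family ligand gene Areg (amphiregulin), the receptor gene Il1rl1 (ST2, which binds IL-33) and the transcription factor gene Gata3. The 6 genes were taken by name from the 20972 gene symbols that the array's accessions matched, and 5 of the 6 gave a signal well above background in every array of at least 1 group. Il5 did not. The cells were donor T cells of female mice of C57BL/6 background, sorted after haematopoietic stem cell transplantation, which was allogeneic (donor and recipient genetically different) or syngeneic (genetically alike). The array groups were ovarian CD8+ (4 arrays) and ovarian CD4+ (2 arrays) cells after allogeneic transplantation, splenic CD8+ (3) and CD4+ (2) cells after allogeneic transplantation, and splenic CD8+ (3) and CD4+ (2) cells after syngeneic transplantation. Each sample held the RNA of a limited number of sorted cells, amplified before labelling, and no ovarian sample of a syngeneic recipient was analysed here. The labels do not say whether the arrays of a group came from separate mice, so each p-value reflects the spread of these samples alone, which may be technical.

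IL-4, IL-5 and IL-13 are made by type 2 helper T cells, mast cells, basophils and group 2 innate lymphoid cells, and act on epithelium, macrophages, B cells and eosinophils. GATA3, the lineage factor of type 2 helper cells, binds regulatory elements of the cytokine genes and is also needed in developing CD4+ cells and in regulatory T cells. ST2 marks type 2 helper cells, mast cells and a tissue-repair subset of regulatory T cells, and amphiregulin made by such cells binds the epidermal growth factor receptor.

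Il4, Il13 and Il5 lie side by side on chromosome 11, with the DNA repair gene Rad50 between Il13 and Il5. In the RefSeq annotation of assembly GRCm38.p6, Il4 spans chr11:53612460-53618665, Il13 spans chr11:53631323-53634702 and Il5 spans chr11:53720794-53725103. The gap between Il4 and Il13 is 12657 bases and that between Il13 and Il5 is 86091 bases. Gata3 spans chr2:9857078-9887953, Il1rl1 spans chr1:40404864-40465418 and Areg spans chr5:91139599-91148432. The stretches of 250 bases before the start sites are shown for the cytokine neighbours, whose signals followed different patterns, and for Il1rl1 and Areg, both higher after allogeneic transplantation in CD8+ cells. Capitals mark GATA motifs (the letters AGATAA, the letters AGATAG, the letters TGATAA or the letters TGATAG, on either strand) and, in Areg, the cyclic AMP response element TGACGTCA, which reads the same on both strands. All are RefSeq sequences of GRCm38.p6, read in the direction of the gene. Il13 lies on the minus strand at chr11:53634703-53634952, Il4 on the minus strand at chr11:53618666-53618915, Il5 on the plus strand at chr11:53720544-53720793, Il1rl1 on the plus strand at chr1:40429320-40429569 and Areg on the plus strand at chr5:91139349-91139598.
Il13: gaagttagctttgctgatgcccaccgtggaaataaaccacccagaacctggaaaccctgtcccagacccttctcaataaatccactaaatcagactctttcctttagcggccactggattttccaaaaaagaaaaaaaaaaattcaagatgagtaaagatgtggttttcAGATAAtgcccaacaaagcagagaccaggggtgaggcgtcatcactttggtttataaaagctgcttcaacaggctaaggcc
Il4: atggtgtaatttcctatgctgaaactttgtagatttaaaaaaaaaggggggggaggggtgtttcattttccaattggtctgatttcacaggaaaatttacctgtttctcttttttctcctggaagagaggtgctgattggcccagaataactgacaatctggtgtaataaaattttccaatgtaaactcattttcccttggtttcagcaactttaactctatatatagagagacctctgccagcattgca
Il5: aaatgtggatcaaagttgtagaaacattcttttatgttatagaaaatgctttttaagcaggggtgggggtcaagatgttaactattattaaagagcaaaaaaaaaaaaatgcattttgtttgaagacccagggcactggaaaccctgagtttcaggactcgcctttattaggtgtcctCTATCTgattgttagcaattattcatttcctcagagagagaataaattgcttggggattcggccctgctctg
Il1rl1: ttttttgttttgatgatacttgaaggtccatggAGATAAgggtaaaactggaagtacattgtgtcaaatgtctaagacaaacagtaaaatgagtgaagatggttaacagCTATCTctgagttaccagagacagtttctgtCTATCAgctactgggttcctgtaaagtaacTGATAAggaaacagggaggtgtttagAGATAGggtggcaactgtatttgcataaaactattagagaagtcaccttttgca
Areg: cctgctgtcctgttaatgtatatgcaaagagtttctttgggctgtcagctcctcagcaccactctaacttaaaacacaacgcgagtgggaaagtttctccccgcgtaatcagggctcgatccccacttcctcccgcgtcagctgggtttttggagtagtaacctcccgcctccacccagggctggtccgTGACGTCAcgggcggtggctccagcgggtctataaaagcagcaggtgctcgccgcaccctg
Il13 holds 1 GATA motif in this window and Il5 holds 1. The outer start site of Il4 holds 0, and its second listed start site, further inside the gene, holds 1. The window of Il1rl1 holds 5 GATA motifs, the nearest beginning at position -54 from the start, and that of its second start site holds 1. The window before the listed start site of Gata3, at chr2:9878601-9878850 on the minus strand, holds 0. It lies inside the span given for the gene, as do both windows of Il1rl1, so these windows do not precede the whole spans. A GATA motif was found in 26.5% of the 32851 promoter windows of the same length and the cyclic AMP element in 1.55%. These matches are descriptions of the letters in the windows.

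Values are log2 processed signals minus the 75th percentile of the array, so 0 is the signal that 75% of the array's spots fall below, and only values of 1 probe are compared with each other. A spot counted as well above background by the scanner software's own call, and the lowest signal so called lay between -5.28 and -2.50 on the different arrays. This lowest signal is the array's background limit here. Some signals above it were not called, such as Il5 at -2.47 on ovarian CD4+ replicate 2, whose limit was -2.69. Folds against the limits are therefore not strict lower bounds. The arrays of ovarian CD4+ replicate 2 and allogeneic splenic CD4+ replicate 2 were the dimmest, with limits of -2.69 and -2.50, while the limits of the other 14 were at most -3.78. The array of allogeneic splenic CD4+ replicate 1 had a dim area: 7.85% of its spots lay where the surrounding bright spots read more than 0.5 (log2) away from the same spots on all arrays, with the local shift reaching -6.51. The single Il13 spot of that array lay inside the area, with a local shift of -6.09, as did 3 of its 10 Il4 spots, and the Il1rl1 spot lay at its edge with a local shift of -0.55. Its Gata3, Areg and Il5 spots did not. Ovarian CD8+ replicate 1 had 0.135% and allogeneic splenic CD8+ replicate 1 had 2.54% of spots in such areas, where 1 of 10 Il4 spots of the splenic array lay, and the other 13 arrays had 0. Each Il13, Il4 or Il1rl1 difference called in the main fit that uses the affected spots of that CD4+ array is given with and without them. The alternative settings kept those spots unless stated.

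**Figure D1:**
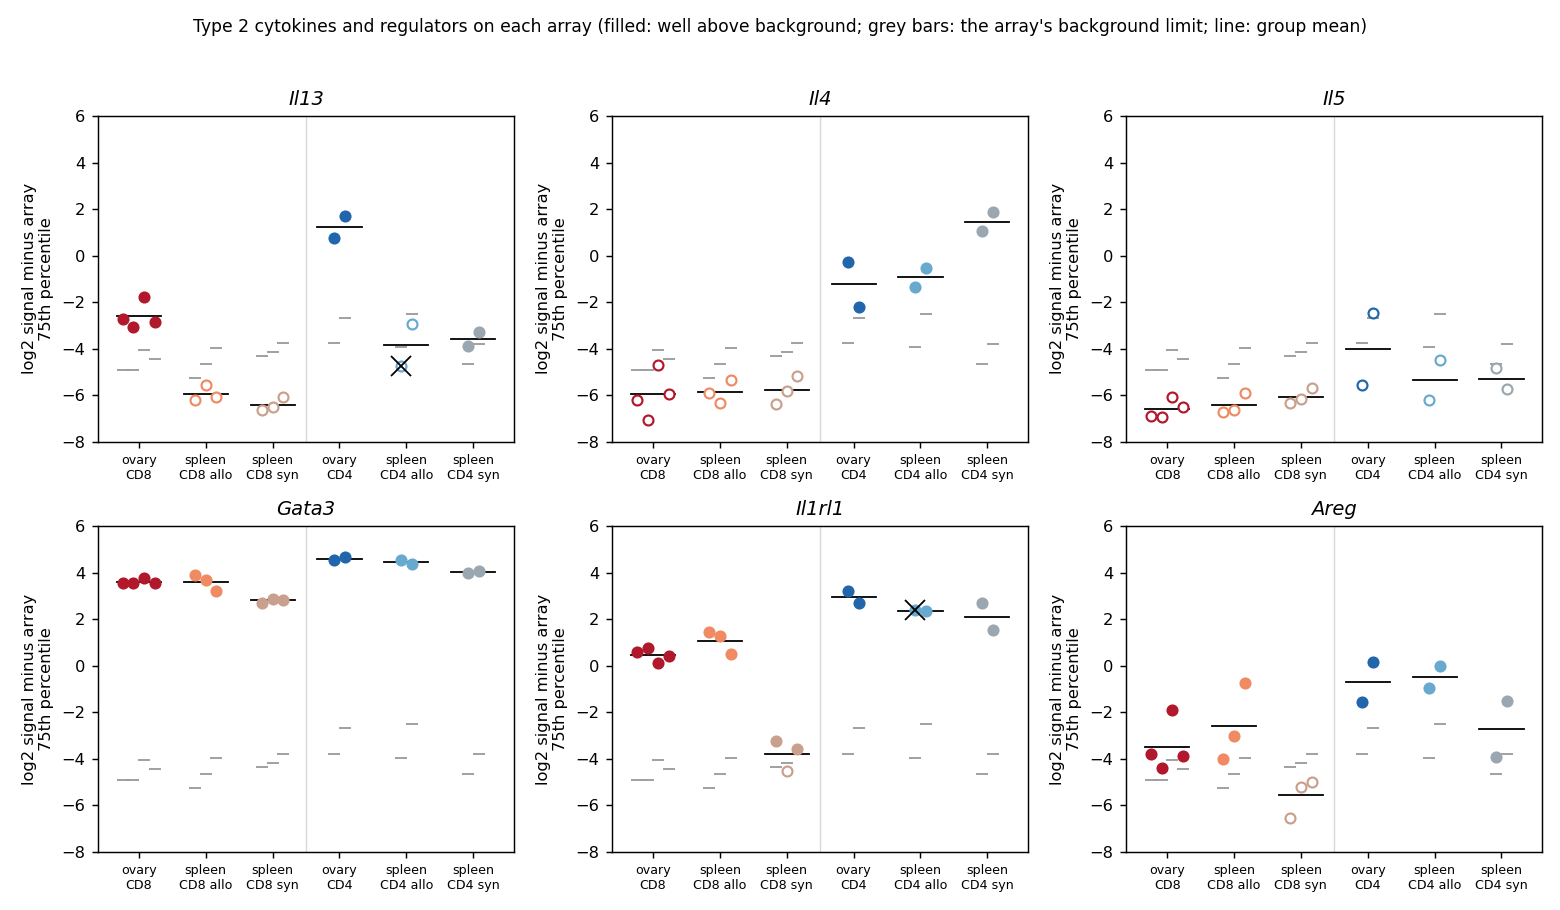
Log2 signal of the 6 genes on each of the 16 arrays, by group (allo, allogeneic; syn, syngeneic). Filled points are well above background and open points are not, grey bars mark each array's background limit, black lines are group means, and crosses mark single spots in the dim area of the splenic CD4+ array; Il13 is highest in the ovarian CD4+ group at 0.77 and 1.70.

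Il13 was the member that was called higher in the ovary than in the spleen, in both T-cell subsets, while Il4 was not called in the same cells. In ovarian CD8+ cells Il13 read -2.74, -3.06, -1.78 and -2.86, all well above background, against -6.22, -5.56 and -6.08 in allogeneic splenic CD8+ cells, none of them well above background. In ovarian CD4+ cells it read 0.77 and 1.70, against -4.76 and -2.94 in allogeneic splenic CD4+ cells, of which neither splenic array was well above background. The ovarian and splenic arrays did not overlap in either subset. IL-13 acts on epithelium, smooth muscle and macrophages through the receptor pair of IL-4Rα and IL-13Rα1.

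In CD8+ cells the ovary minus spleen difference of Il13 was 3.35 ± 0.43 (log2, SE; adjusted p = 0.00292, limma). Measured against the splenic arrays' background limits, the ovarian Il13 signal was 4.08-fold higher. Il13 was the member called (adjusted p under 0.05) of 5 tested, where 0.53% of the 22835 features tested were called. The call depended on how dim signals were read: with normexp background correction the difference was 0.82 (adjusted p = 0.629), and with signals raised to the highest background limit of the arrays compared it was 1.36 (adjusted p = 0.103). Within slide 1 the Il13 difference was 2.99 (adjusted p = 0.0572), within slide 2 it was 3.76 (adjusted p = 0.409), and with the slide as a block 3.24 (adjusted p = 0.00159). In CD4+ cells the difference was 5.09 ± 0.56 (adjusted p = 0.00367), with an ovarian signal 22.0-fold higher than the splenic limit. Without the spot in the dim area, which leaves 1 splenic array, the difference was 4.18 and the fold against the limit was 13.4. With normexp correction the difference was 2.26 (adjusted p = 0.0630). Within slide 1 it was 5.53, where the spot in the dim area was the only splenic value, and within slide 2 it was 4.65. With the slide as a block, which kept that spot, it was 5.09 (adjusted p = 0.00121). Il13 was again the single member called of 5, where 0.907% of all features were called.

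The size of that ovarian difference was not shown to differ between the subsets. The CD8+ minus CD4+ difference of the tissue differences was -1.74 ± 0.70 for Il13 (unadjusted p = 0.0292, adjusted p = 0.405), and 0 of 5 members passed, as did 0% of all features. Without the spot in the dim area it was -0.83 (adjusted p = 0.664). With signals raised to the highest background limit it was -3.56 (adjusted p = 0.000535), and the values of both splenic groups then rest on that limit. Without allogeneic splenic CD4+ replicate 2 the difference of tissue differences was -2.65, and the spot in the dim area was then the only splenic CD4+ value.

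Il13 was lower in CD8+ than in CD4+ cells of the ovary and of the syngeneic spleen. In the ovary the difference was -3.85 ± 0.48 (adjusted p = 0.000348), and all 6 arrays were well above background. In the syngeneic spleen Il13 read -6.66, -6.49 and -6.08 in CD8+ cells, none well above background, against -3.89 and -3.27 in CD4+ cells, both just above their limits. The difference there was -2.83 ± 0.51 (adjusted p = 0.00676), but against the limits it amounts only to 1.43-fold higher in CD4+ cells. The call was lost without syngeneic splenic CD4+ replicate 2 (-2.52, adjusted p = 0.1000) and with normexp correction (-0.30). In the allogeneic spleen the fitted difference was -2.11 ± 0.51 (adjusted p = 0.0100) with no array of either subset well above background, so it sets background readings against each other and no fold is given. The background limits of those arrays were also lower in CD8+ (-5.28 to -3.97) than in CD4+ cells (-3.95 and -2.50). That call was lost without allogeneic splenic CD4+ replicate 2 (-1.20, adjusted p = 0.118), and without the spot in the dim area the difference was -3.01 (adjusted p = 0.0016).

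Between allogeneic and syngeneic transplantation no Il13 difference was called in the spleen. The allogeneic minus syngeneic difference was 0.45 ± 0.46 in CD8+ cells (adjusted p = 0.453) and -0.27 ± 0.56 in CD4+ cells (adjusted p = 0.795). Without the spot in the dim area the CD4+ value was 0.64 (adjusted p = 0.473). In order of level, the group means ran from ovarian CD4+ (1.24 ± 0.66, SD) through ovarian CD8+ (-2.61 ± 0.57), syngeneic splenic CD4+ (-3.58 ± 0.44), allogeneic splenic CD4+ (-3.85 ± 1.28) and allogeneic splenic CD8+ (-5.96 ± 0.35) to syngeneic splenic CD8+ (-6.41 ± 0.30). Ovarian CD8+ and syngeneic splenic CD4+ cells were not set against each other by a test, and in the other 3 splenic groups no array was well above background.

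Il4 differed between the subsets and was not called between the tissues, where only the CD4+ arrays held an Il4 signal. It was well above background on all 6 CD4+ arrays and on 0 of 10 CD8+ arrays. Ovarian CD4+ cells read -0.26 and -2.21, allogeneic splenic CD4+ cells read -1.34 and -0.54, and syngeneic splenic CD4+ cells read 1.04 and 1.87. The ovarian and allogeneic splenic arrays overlapped, and both syngeneic arrays lay above all 4 allogeneic ones. IL-4 drives type 2 helper differentiation and antibody class switching in B cells.

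**Figure D2:**
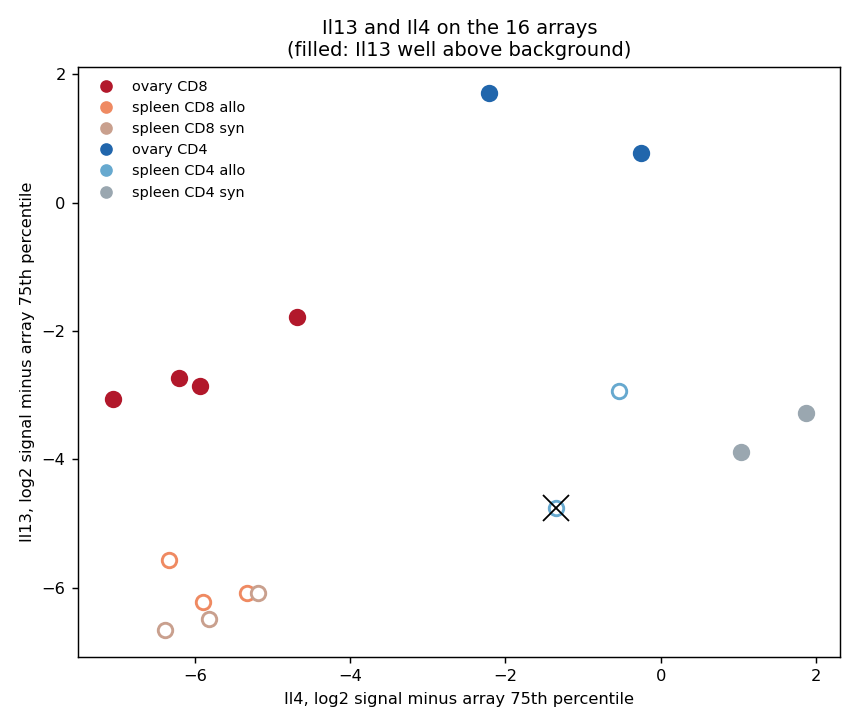
Il13 (vertical axis) against Il4 (horizontal axis) on the 16 arrays, both as log2 signal minus the array's 75th percentile. Filled points have Il13 well above background and the cross marks the array whose Il13 spot lies in a dim area; the ovarian CD4+ arrays (0.77 and 1.70 on the Il13 axis) stand apart from the splenic CD4+ arrays (-4.76 to -2.94) along Il13, while on the Il4 axis they overlap the allogeneic ones.

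The ovary minus spleen difference of Il4 was -0.29 ± 0.75 in CD4+ cells (adjusted p = 0.918) and -0.12 ± 0.57 in CD8+ cells (adjusted p = 0.992), where no array was well above background. In the CD8+ minus CD4+ comparisons Il4 fell by 4.74 ± 0.65 in the ovary (adjusted p = 0.000609), by 4.92 ± 0.68 in the allogeneic spleen (adjusted p = 0.000459) and by 7.26 ± 0.68 in the syngeneic spleen (adjusted p = 8.87e-05). Without the spots in uneven areas the allogeneic splenic value was -5.46 (adjusted p = 0.000174). Set against the background limits of the CD8+ arrays, the CD4+ signal was 10.2-fold higher in the ovary, 13.0-fold in the allogeneic spleen and 46.8-fold in the syngeneic spleen. These folds order the groups by the CD4+ signal, since the CD8+ side is a limit in each.

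Il4 was lower in allogeneic than in syngeneic splenic CD4+ cells, and its place at the threshold depended on a few spots. The difference over the mean of the 10 spots was -2.40 ± 0.75 (adjusted p = 0.0480), and Il4 was the member called of 5, where 16.1% of all features were called. The array of allogeneic splenic CD4+ replicate 1 carried 7 Il4 spots between -0.56 and -0.14 and 3 spots in the dim area between -4.03 and -3.28. With those 3 spots left out that array read -0.37 and the difference was -1.91 (adjusted p = 0.0963). With the median of the 10 spots the difference was -1.95 (adjusted p = 0.0942). The direction held, both syngeneic arrays still exceeding both allogeneic ones, and the adjusted p without any 1 of the 4 arrays ran between 0.0608 and 0.201.

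**Figure D3:**
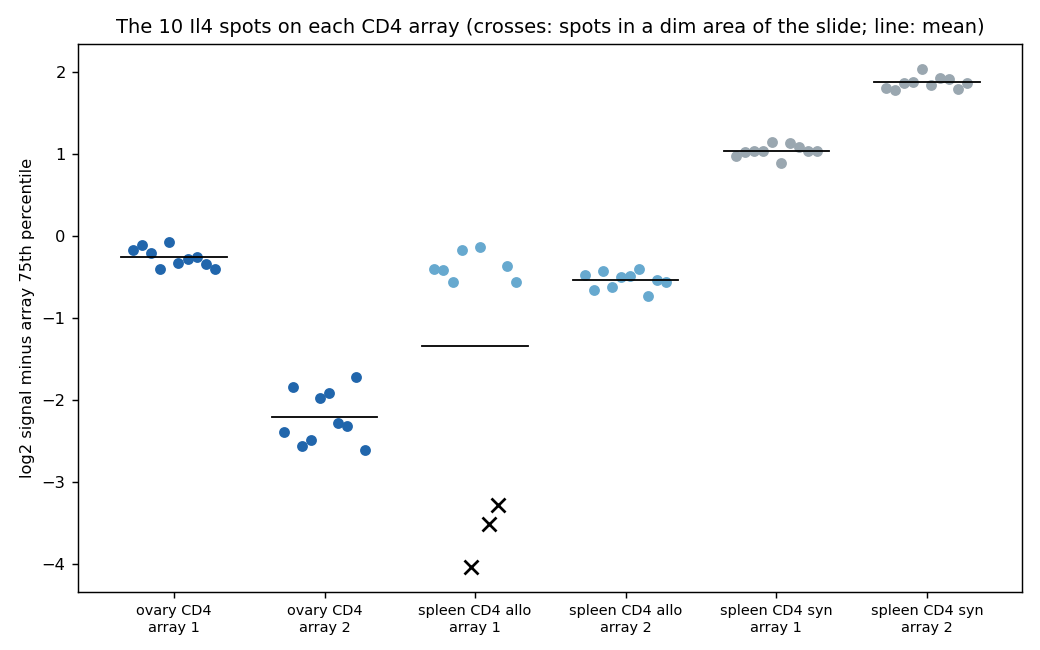
The 10 spots of the Il4 probe on each CD4+ array, as log2 signal minus the array's 75th percentile. Crosses are spots in the dim area of allogeneic splenic CD4+ replicate 1 (-4.03 to -3.28), the other points are spots outside it, and lines are means; the 7 other spots of that array lie between -0.56 and -0.14.

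The spread of the 10 Il4 spots within an array gives only the error between spots of that array. It leaves out technical error between arrays, such as that of amplification, labelling and hybridisation. Within the CD4+ arrays its SD was between 0.07 and 1.58, the highest on the array with the dim area, and within the CD8+ arrays, near background, between 0.19 and 0.78. Between the ovarian CD4+ replicates Il4 differed by 1.95, and on the dim array of replicate 2 6 of the 10 spots were well above background. The difference of transplant differences, CD8+ minus CD4+, was 2.34 ± 0.97 for Il4 (adjusted p = 0.131) and passed with quantile normalization (2.90, adjusted p = 0.0298). CD8+ cells were at background on both sides. Their own transplant difference was -0.05, and 0.37 with quantile normalization, so shifts of background readings enter these values beside the CD4+ change.

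Il5, the eosinophil growth factor gene, was not well above background on any of the 16 arrays. Its values were -6.91, -6.93, -6.08 and -6.51 in ovarian CD8+ cells and -5.54 and -2.47 in ovarian CD4+ cells, against -6.71, -6.66 and -5.92 in allogeneic splenic CD8+ and -6.23 and -4.50 in allogeneic splenic CD4+ cells. Syngeneic splenic CD8+ cells read -6.33, -6.18 and -5.71, and CD4+ cells read -4.85 and -5.75. The highest 2 values, -2.47 and -4.50, came from the 2 dimmest arrays, whose background limits are also the highest. Il5 did not pass the filter on dim probes. Without the filter it read -2.60 in ovarian CD8+ against CD4+ cells (adjusted p = 0.0433), a call between values of which 0 were well above background, and was called in none of the other 6 comparisons of groups.

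Areg was higher after allogeneic transplantation in splenic CD8+ cells and varied widely between arrays of a group. Ovarian CD8+ cells read -3.80, -4.40, -1.88 and -3.87, allogeneic splenic CD8+ cells -4.02, -3.02 and -0.74, and syngeneic splenic CD8+ cells -6.55, -5.20 and -4.99. Ovarian CD4+ cells read -1.58 and 0.14, allogeneic splenic CD4+ cells -0.94 and -0.01, and syngeneic splenic CD4+ cells -3.91 and -1.51. All were well above background except the 3 syngeneic splenic CD8+ arrays. Allogeneic and syngeneic arrays did not overlap in either splenic subset, while ovarian and allogeneic splenic arrays overlapped in both.

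In splenic CD8+ cells the allogeneic minus syngeneic difference of Areg was 2.98 ± 0.93 (adjusted p = 0.0235), or 2.83-fold higher against the syngeneic limits. The call was lost without syngeneic replicate 1 (2.50, adjusted p = 0.0837) and without allogeneic replicate 3 (2.06, adjusted p = 0.0835), and with normexp correction the difference was 0.41 (adjusted p = 0.524). With signals raised to the highest background limit of the arrays compared it was 1.26 (adjusted p = 0.240), and with a floor common to all arrays 0.59 (adjusted p = 0.474). In splenic CD4+ cells the difference was 2.23 ± 1.14 (adjusted p = 0.209). With the slide as a block it was 2.23 (adjusted p = 0.0270). The transplant differences of the 2 subsets were not shown to differ (0.76 ± 1.47, adjusted p = 0.763).

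Between ovary and spleen Areg differed by -0.89 ± 0.87 in CD8+ cells (adjusted p = 0.863) and by -0.24 ± 1.14 in CD4+ cells (adjusted p = 0.959), and the first value was 0.034 without allogeneic splenic CD8+ replicate 3. The CD8+ minus CD4+ differences were -2.77 ± 0.98 in the ovary (adjusted p = 0.0721), -2.12 ± 1.04 in the allogeneic spleen (adjusted p = 0.141) and -2.87 ± 1.04 in the syngeneic spleen (adjusted p = 0.189). With the slide as a block they were -2.77 (adjusted p = 0.00481), -1.83 (adjusted p = 0.0292) and -3.16 (adjusted p = 0.0077), so Areg joined the called members there. In all 6 groups the array with the highest Areg was on the second of the 2 slides and the array with the lowest was on the first. Areg was also called without 1 array in ovarian CD8+ against CD4+ cells (-3.31 without ovarian CD8+ replicate 3, adjusted p = 0.0362) and in allogeneic splenic CD8+ against CD4+ cells (-3.04 without CD8+ replicate 3, adjusted p = 0.0331).

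Il1rl1 showed the largest transplant difference of the members, and it lay in CD8+ cells. The probe read 1.43, 1.29 and 0.49 in allogeneic splenic CD8+ cells, against -3.25, -4.53 and -3.60 in syngeneic splenic CD8+ cells, the middle one of which was not well above background. In splenic CD4+ cells it read 2.40 and 2.36 after allogeneic, against 2.70 and 1.53 after syngeneic transplantation. The CD8+ groups were far apart and the CD4+ groups overlapped. Ovarian cells read 0.58, 0.78, 0.13 and 0.44 in the CD8+ and 3.20 and 2.71 in the CD4+ subset.

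In splenic CD8+ cells the allogeneic minus syngeneic difference of Il1rl1 was 4.86 ± 0.38 (adjusted p = 1.09e-06), and in CD4+ cells it was 0.26 ± 0.46 (adjusted p = 0.755). Their difference was 4.60 ± 0.59 (adjusted p = 0.000810), the single member to pass of 5, where 11.9% of all features did, and without the spot at the edge of the dim area it was 4.62 (adjusted p = 0.0026). Il1rl1 in CD8+ against CD4+ cells fell by 5.91 ± 0.42 in the syngeneic spleen (adjusted p = 1.20e-05), by 1.31 ± 0.42 in the allogeneic spleen (adjusted p = 0.0351) and by 2.47 ± 0.40 in the ovary (adjusted p = 0.00187). The allogeneic splenic value, without the spot at the edge of the dim area, was -1.29 (adjusted p = 0.0996), and the call was also lost without allogeneic splenic CD8+ replicate 2 (adjusted p = 0.0567), CD8+ replicate 3 (adjusted p = 0.0871), CD4+ replicate 1 (adjusted p = 0.0992) or CD4+ replicate 2 (adjusted p = 0.114). Ovary and spleen did not differ by a called amount in CD8+ (-0.59 ± 0.35, adjusted p = 0.716) or CD4+ cells (0.58 ± 0.46, adjusted p = 0.611).

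Il1rl1 has 3 probes. The one described, A_55_P2027737, and a second, A_55_P2027731, share the accession NM_001025602, and the remaining probe, A_51_P339793, carries NM_010743. The second probe was well above background on 11 arrays, with -3.44, -3.35, -4.01 and -3.44 in ovarian CD8+ cells, -3.89, -3.52 and -4.11 in allogeneic splenic CD8+ cells and -6.47, -5.99 and -5.89, all at background, in syngeneic splenic CD8+ cells. In CD4+ cells it read -0.88 and -0.26 in the ovary, -0.94 and -0.50 in the allogeneic spleen and -1.31 and -2.63 in the syngeneic spleen. The direction in CD8+ cells was the same with a smaller difference of 2.28 ± 0.33 (adjusted p = 0.000184). Its syngeneic side consists of background readings, so its size is not a measured fold. The allogeneic mean of -3.84, with 2 of 3 arrays well above background, lay close to the syngeneic arrays' limits of -4.34, -4.17 and -3.78. With this probe the difference of transplant differences was 1.03 ± 0.52 (adjusted p = 0.217). The remaining probe was well above background on 4 arrays and did not pass the filter.

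**Figure D4:**
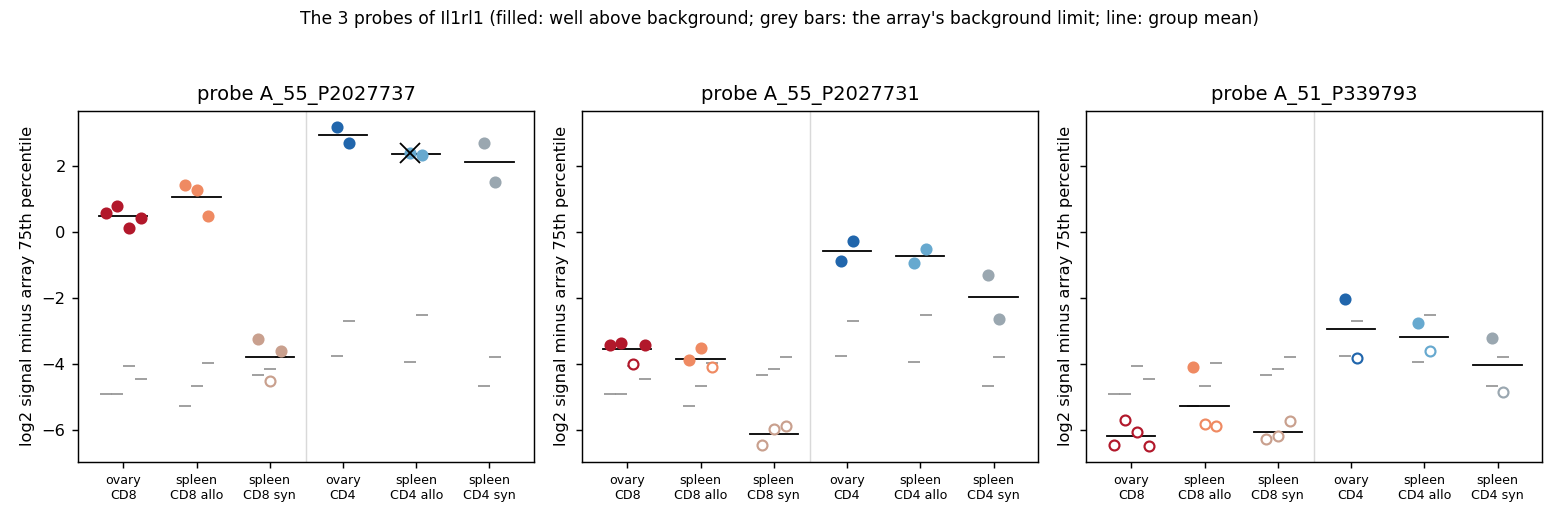
Log2 signal minus the array's 75th percentile for the 3 Il1rl1 probes on each array, by group (allo, allogeneic; syn, syngeneic). Filled points are well above background, grey bars mark the arrays' background limits, lines are group means and the cross marks the spot at the edge of the dim area; for the first probe the syngeneic splenic CD8+ arrays lie between -4.53 and -3.25 and all other arrays at or above 0.13.

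Gata3 was bright on all 16 arrays and changed within a narrow range. It read 3.56, 3.55, 3.80 and 3.55 in ovarian CD8+ cells, 3.91, 3.70 and 3.22 in allogeneic splenic CD8+ cells and 2.72, 2.88 and 2.85 in syngeneic splenic CD8+ cells. In CD4+ cells it read 4.55 and 4.67 in the ovary, 4.56 and 4.37 in the allogeneic spleen and 3.97 and 4.06 in the syngeneic spleen. Allogeneic arrays lay above syngeneic ones in both splenic subsets and CD4+ arrays above CD8+ ones within each source. The lowest and highest group means, syngeneic splenic CD8+ and ovarian CD4+, were 1.80 apart.

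In splenic CD8+ cells Gata3 rose after allogeneic against syngeneic transplantation by 0.79 ± 0.17 (adjusted p = 0.00247), which is 1.73-fold. With Il1rl1 and Areg it made 3 of 5 members called and higher in that comparison, where 38.4% of all features were called in either direction. In splenic CD4+ cells the Gata3 difference was 0.45 ± 0.20 (adjusted p = 0.157), and the difference between the subsets was 0.35 ± 0.26 (adjusted p = 0.400). Gata3 was lower in CD8+ than in CD4+ cells by -0.99 ± 0.18 in the ovary (adjusted p = 0.00309), -0.86 ± 0.18 in the allogeneic spleen (adjusted p = 0.00557) and -1.20 ± 0.18 in the syngeneic spleen (adjusted p = 0.00236). With normexp correction the ovarian value was -0.60 (adjusted p = 0.0616) and the allogeneic splenic one -0.47 (adjusted p = 0.138). Between ovary and spleen it differed by 0.01 ± 0.15 in CD8+ cells (adjusted p = 0.999) and 0.15 ± 0.20 in CD4+ cells (adjusted p = 0.810).

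In each of the 3 CD8+ against CD4+ comparisons 4 of 5 members, Il13, Il4, Gata3 and Il1rl1, were called and lower in CD8+ cells, though in the allogeneic spleen Il13 was not well above background in either subset. The share of all features called was 17.5% in the ovary, 29.4% in the allogeneic spleen and 4.14% in the syngeneic spleen. These comparisons share no samples with each other.

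**Figure D5:**
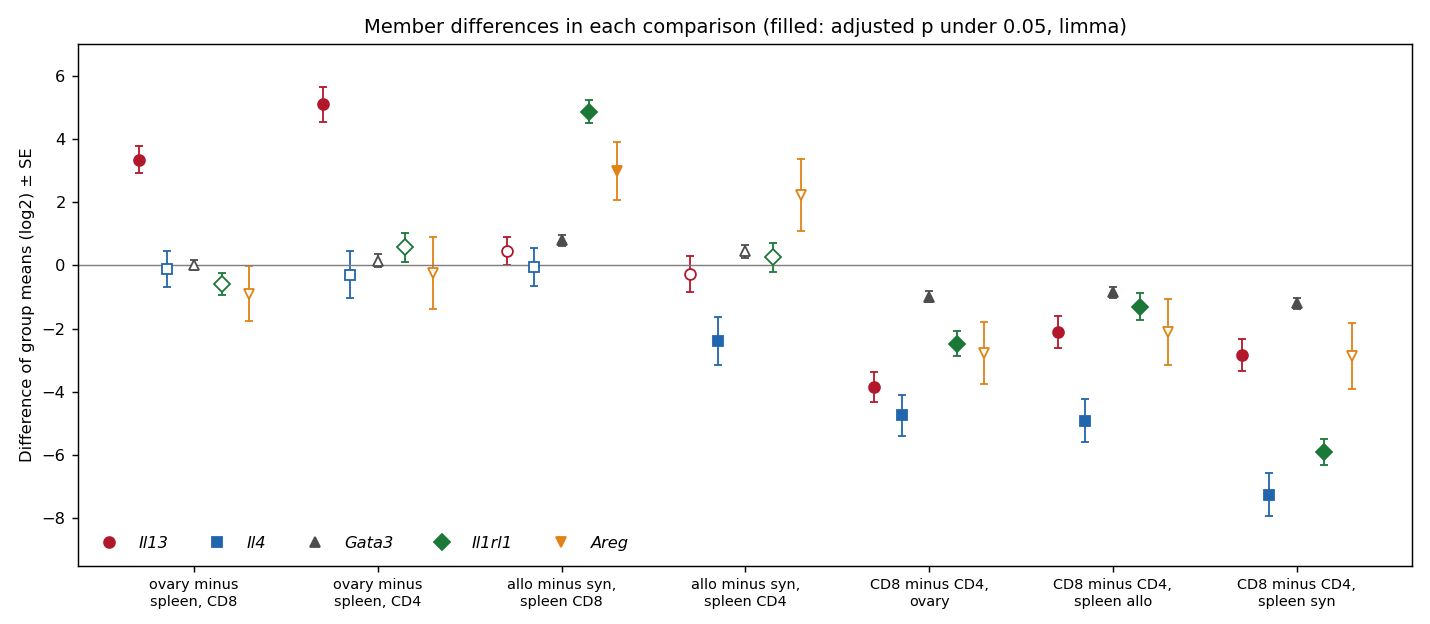
Difference of group means (log2, ± SE) for the 5 members tested in 7 comparisons, as named under the axis. Filled symbols have an adjusted p under 0.05 in limma; Il13 is the filled symbol in both ovary minus spleen comparisons (3.35 and 5.09), and all 4 filled symbols in each CD8 minus CD4 comparison lie below 0.

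Counts over lists of pathway and marker genes include genes with a spot in the uneven areas. The share of all features called, which belongs beside every such count, was 0.53% in CD8+ and 0.907% in CD4+ cells for ovary against spleen. For CD8+ against CD4+ cells it was 17.5% in the ovary and 29.4% in the allogeneic spleen. Il4ra, the chain shared by the IL-4 and IL-13 receptors, fell after allogeneic against syngeneic transplantation by 2.65 ± 0.32 in splenic CD8+ cells (adjusted p = 3.76e-05) and by 2.00 ± 0.39 in splenic CD4+ cells (adjusted p = 0.00488). Its group means were -1.02 ± 0.04 in ovarian CD8+ and 0.17 ± 0.05 in ovarian CD4+ cells (SD), against -1.21 ± 0.61 in allogeneic splenic CD8+ and -0.49 ± 0.64 in allogeneic splenic CD4+ cells, and ovary against spleen it was not called in either subset. Il13ra1, the partner chain for IL-13, was well above background on 0 arrays, while Il5ra was so on all 16 and was called in none of the 7 comparisons of groups. Of 17 receptor genes tested, 6 rose and 4 fell in allogeneic against syngeneic CD8+ cells. Among all features 38.4% were called there, and the median over the 17 was 0.41, against -0.16 over all features. Ccr8, a chemokine receptor of type 2 and regulatory cells, rose (3.04 ± 0.26, adjusted p = 2.44e-06), as did Crlf2, a chain of the TSLP receptor (1.51 ± 0.17). Ccr8 was well above background on 0 of 3 syngeneic CD8+ arrays, so its value is set against background readings.

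In splenic CD4+ cells 4 of these 17 genes rose and 3 fell after allogeneic against syngeneic transplantation (median 0.19, against 0.04 over all features, of which 16.1% were called). Il17rb, the receptor for IL-25, fell by 4.99 ± 1.09 (adjusted p = 0.00956), with 0 of 2 allogeneic and 2 of 2 syngeneic arrays well above background. With the allogeneic background limits taken into account Il17rb was 22.0-fold lower. Between ovary and spleen, Il7r, the IL-7 receptor, fell by 1.21 ± 0.22 in CD8+ (adjusted p = 0.0323) and by 1.92 ± 0.29 in CD4+ cells (adjusted p = 0.0138), and Ccr3, the eotaxin receptor, fell by 1.72 ± 0.31 in CD4+ cells (adjusted p = 0.0288). The remaining 16 genes in CD8+ and 15 in CD4+ cells did not pass. In ovarian CD8+ against CD4+ cells 9 of 17 fell and 0 rose, with 17.5% of all features called. They included Ccr4, a receptor for CCL17 and CCL22 (-5.42 ± 0.78), and Tnfrsf4, the costimulatory receptor OX40 (-2.92 ± 0.31). Ccr4 was well above background on 0 of 4 ovarian CD8+ arrays, so its value is set against background readings.

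Among 25 transcription factor genes of the type 2 programme, 10 rose and 7 fell in allogeneic against syngeneic splenic CD8+ cells (median 0.22, against -0.16 over all features, of which 38.4% were called). Maf, which activates Il4, rose by 2.55 ± 0.29 (adjusted p = 2.46e-05), Irf4, a factor of effector T-cell differentiation, by 2.86 ± 0.25 (adjusted p = 2.85e-06), and Rora by 3.20 ± 0.30. Tcf7, a factor of naive and memory T cells, fell by 2.20 ± 0.13. In splenic CD4+ cells, where 16.1% of all features were called, 7 rose and 2 fell, Maf rising by 1.62 ± 0.35 (adjusted p = 0.00960) and Pparg by 1.72 ± 0.31, while Irf4 read 0.46 ± 0.30 (adjusted p = 0.337). Stat6, the signal transducer of the IL-4 receptor, was called in none of the 7 comparisons, its group means lying between 1.49 and 2.05.

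Between ovary and spleen few of these factors were called. In CD8+ cells Rbpj, the nuclear partner of Notch, rose by 1.27 ± 0.25 (adjusted p = 0.0498) and Tcf7 fell by 0.99 ± 0.12, with 23 of 25 not called. In CD4+ cells Tcf7 fell by 0.92 ± 0.15 and 24 were not called. In ovarian CD8+ against CD4+ cells Maf fell by 2.75 ± 0.31 and Stat5a by 0.65 ± 0.15 (adjusted p = 0.0125), 6 of the 25 genes being lower and 2 higher, where 17.5% of all features were called.

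Of 18 genes that oppose the type 2 programme, 15 were well above background on all 16 arrays, and the other 3 were Hlx (12 arrays), Sox4 (9) and Twist1 (0). Tbx21, the lineage factor of type 1 helper and effector CD8+ cells, averaged 5.52 in ovarian CD8+ and 4.93 in ovarian CD4+ cells, against 5.30 in allogeneic splenic CD8+ and 4.22 in allogeneic splenic CD4+ cells. It rose in allogeneic against syngeneic CD8+ cells by 2.95 ± 0.33 (adjusted p = 2.42e-05) and read 1.29 ± 0.41 in CD4+ cells (adjusted p = 0.0502). Ifng, the type 1 cytokine gene, rose by 3.75 ± 0.54 in CD8+ cells (adjusted p = 0.000184), and by 2.11 ± 0.67 in CD4+ cells, at the threshold itself (adjusted p = 0.04998). Ovary against spleen, Ifng read 0.36 ± 0.51 in CD8+ (adjusted p = 0.925) and 0.47 ± 0.67 in CD4+ cells (adjusted p = 0.819). Of 17 opposing regulators tested, 0 were called between ovary and spleen in either subset.

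Of 8 tested genes that tissues raise in response to IL-4 and IL-13, 1 was called in ovarian against allogeneic splenic CD8+ cells: Ccl17, a chemokine for CCR4-bearing cells, which rose by 4.13 ± 0.36 (adjusted p = 0.000322) and was well above background on 4 of 4 ovarian and 1 of 3 splenic arrays, where 0.53% of all features were called. In CD4+ cells 0 of 8 were called, where 0.907% of all features were, and Ccl17 read 1.30 ± 0.47 (adjusted p = 0.218). Retnla, a gene of alternatively activated macrophages, read -1.01 and 4.49 in ovarian CD4+ cells, against -4.58 and -3.74 in splenic CD4+ cells, with no overlap. The difference was 5.90 ± 1.26 (adjusted p = 0.0524). Arg1, the arginase gene of the same macrophages, read -3.14 and 1.95, against -6.12 and -4.11, with 2 of 2 ovarian and 0 of 2 splenic arrays well above background (4.51 ± 1.17, adjusted p = 0.0995). In CD8+ cells Retnla was well above background on 3 of 4 ovarian and 0 of 3 splenic arrays (1.95 ± 0.96, adjusted p = 0.635). Of 8 feedback genes of cytokine signalling, Cish, an inhibitor induced through STAT5, rose in the ovary in CD8+ (1.22 ± 0.15, adjusted p = 0.00285) and CD4+ cells (0.98 ± 0.20, adjusted p = 0.0460), the other 7 not being called in either.

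Of the ligands upstream of ST2 and related receptors, Il33 was well above background on 0 arrays, and Il18 was the single one of 4 alarmin genes that was tested. Il18 rose by 2.34 ± 0.72 in allogeneic against syngeneic splenic CD4+ cells (adjusted p = 0.0449). Of 7 tested genes of the epidermal growth factor family and its release, 0 were called in either ovary against spleen comparison. In allogeneic against syngeneic CD8+ cells Egf fell (-1.13 ± 0.31). Egfr, the receptor for amphiregulin, was well above background on 14 arrays and was called only in allogeneic splenic CD8+ against CD4+ cells (-1.49 ± 0.32, adjusted p = 0.00558), where 3 of 3 CD8+ and 1 of 2 CD4+ arrays were well above background.

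Profiles nearest to each member over the 16 arrays were found by the root mean square difference of log2 values centred on each gene's mean, among 13528 other named genes. For Il13 they were Trem2, a macrophage receptor gene (0.956), Pcp4l1 (1.12) and Ccl7, a monocyte chemokine gene (1.13), where the median over genes was 2.50. For Il4 they were Lrrc32, the GARP gene of regulatory T cells (1.003), Sirpb1a (1.29) and Tlcd5 (1.30). For Il1rl1 they were Il2ra, the IL-2 receptor alpha chain (0.562), Bmp7 (0.769) and Lrrn3 (0.814), and for Areg they were Cxcl10 (0.848), Ctla4 (0.889) and Fam183b (0.889). For Gata3 they were Ralgds (0.186), Psen2 (0.191) and Prdx4 (0.217), among a median of 0.790. Trem2 was well above background on 6 arrays and Il13 on 8, and the Il13 spot in the dim area enters its distances.

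Markers of other cells moved with some of these values. Summed linear signals, in units of the array's 75th percentile, of 7 macrophage genes (Adgre1, Csf1r, Lyz2, Cd14, C1qa, C1qb and Apoe) ran from 55.3 to 125 in ovarian CD4+ and 9.31 to 10.5 in ovarian CD8+ cells, against 51.8 to 82.0 in allogeneic splenic CD4+ and 5.70 to 7.25 in allogeneic splenic CD8+ cells. In ovary against spleen 0 of the 7 were called in CD4+ and 1, Apoe (1.76 ± 0.34, adjusted p = 0.0440), in CD8+ cells (the Apoe spots on allogeneic splenic CD4+ replicate 1 had a mean local shift of -0.62), and all 7 were lower in CD8+ than in CD4+ cells of the ovary and of the allogeneic spleen. Of 11 mast cell and basophil genes, Mcpt8, Mcpt4, Cma1, Cpa3, Fcer1a, Ms4a2 and Gata2 were well above background on 0 ovarian arrays. The other 4, Kit, Tpsb2, Prss34 and Hdc, were so on 4 of 4 ovarian CD8+ arrays and on 1, 2, 1 and 2 of the 2 ovarian CD4+ arrays, and 0 of the 5 tested were called between ovary and spleen. In syngeneic splenic CD4+ cells Fcer1a was well above background on 2 of 2 arrays, and Mcpt8, Mcpt4, Cpa3 and Gata2 on 1 of 2. In allogeneic splenic cells Mcpt8, Cpa3 and Fcer1a were so on 1 of 2 CD4+ and 1 of 3 CD8+ arrays, and Gata2 on 0 and 1. Of 7 eosinophil genes, Prg2, Prg3, Epx and Alox15 were so on 0 ovarian arrays. Prg2 was so on 2 of 2 allogeneic and 1 of 2 syngeneic splenic CD4+ arrays, and on 1 of 3 allogeneic splenic CD8+ arrays. Siglecf was so on 4 of 4 ovarian CD8+ and 1 of 2 ovarian CD4+ arrays, Ear2 on 3 of 4 and 2 of 2, and Ear1 on 0 of 4 and 2 of 2. In bulk samples such as these, fewer cells of a type and less RNA per cell cannot be told apart. The part of macrophage, mast cell, basophil or eosinophil RNA in the members' values was not tested.

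Regulatory T-cell genes also differed between allogeneic and syngeneic transplantation. They did so in splenic CD8+ cells, where Il1rl1 and Areg were called, and in splenic CD4+ cells, where those 2 members were not. The sum over 8 genes ran from 183 to 274 in ovarian CD4+, 67.1 to 71.7 in ovarian CD8+, 163 to 203 in allogeneic splenic CD4+ and 63.4 to 71.1 in allogeneic splenic CD8+ cells, against 82.7 to 96.6 in syngeneic splenic CD4+ and 22.9 to 24.6 in syngeneic splenic CD8+ cells. In allogeneic against syngeneic CD8+ cells 7 of 8 rose (median 2.98, against -0.16 over all features, of which 38.4% were called), Foxp3, their lineage factor, by 2.20 ± 0.36 (adjusted p = 0.000488, its spot on allogeneic replicate 1 having a local shift of 0.70), and 4 of 8 rose in CD4+ cells, where 16.1% of all features were called and Foxp3 read 1.03 ± 0.45 (adjusted p = 0.138). Between ovary and spleen 0 of 8 were called in either subset. Their part in the values of Il1rl1 and Areg was not tested. For the sort, Cd8a was well above background on all 10 CD8+ and 0 of 6 CD4+ arrays. The other sort markers did not separate in this way, Cd8b1 being well above background on 15 arrays and Cd4 on all 16. Group means of Cd8b1 were 5.73 to 6.52 in CD8+ and -2.31 to 0.01 in CD4+ cells. Those of Cd4 were 1.75 to 2.30 in CD8+ and 4.50 to 5.33 in CD4+ cells.

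Genes of ovarian tissue were among those that differed between ovary and spleen beside Il13. In ovarian against allogeneic splenic CD8+ cells 3 of 6 tested theca and luteal genes, 1 of 6 granulosa genes and 1 of 5 epithelial and stromal genes rose, and 0 of these fell. In CD4+ cells 2 of 6 theca and luteal genes and 2 of 6 granulosa genes rose and 1 of 5 epithelial and stromal genes fell. Hsd3b1, an enzyme of steroid hormone synthesis, rose by 6.30 ± 0.46 in CD8+ (adjusted p = 0.000183) and by 5.62 ± 0.60 in CD4+ cells (adjusted p = 0.00367). Wt1, a factor of granulosa and surface epithelial cells, rose by 2.48 ± 0.35 in CD8+ (adjusted p = 0.00582) and by 2.99 ± 0.45 in CD4+ cells (adjusted p = 0.0138). Hsd3b1 and Wt1 were well above background on 0 allogeneic splenic arrays, so their values are set against background readings. The nuclear receptor gene Nr5a2 rose by 2.99 ± 0.50 in CD4+ cells (adjusted p = 0.0208). The inhibin genes Inha and Inhbb and Wt1 were well above background on 2 of 2 ovarian and 0 of 2 allogeneic splenic CD4+ arrays, while Amh and Lhcgr were so on 0 arrays. Foxl2 was bright in every group, the spleen included, so sums were taken, after the values were seen, over the other 8 granulosa genes. These were 0.634 to 3.49 in ovarian CD8+ and 1.93 to 2.88 in ovarian CD4+ cells, against 0.237 to 0.710 in allogeneic splenic CD8+ and 0.297 to 0.541 in allogeneic splenic CD4+ cells. Of 6 B-cell genes, 1 fell in ovarian CD8+ and 3 in ovarian CD4+ cells against the spleen. The part of ovarian tissue RNA in the Il13 values was not tested.

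Other cytokine genes of the type 2 region and programme were not called between ovary and spleen (0 of 5 tested in either subset). Csf2, which encodes GM-CSF, read 1.91 ± 0.44 in CD4+ cells (adjusted p = 0.0671), where its spots on allogeneic splenic CD4+ replicate 1 had a mean local shift of -1.13. In allogeneic against syngeneic CD8+ cells 2 of 5 genes were higher and 0 lower, where 38.4% of all features were called. Csf2 rose there by 4.56 ± 0.36 (adjusted p = 1.20e-06), with 0 of 3 syngeneic arrays well above background. In ovarian CD8+ against CD4+ cells 3 of 5 were lower, where 17.5% of all features were called. Among them was Il6 (-5.06 ± 0.74), with 0 of 4 ovarian CD8+ arrays well above background. Both values are set against background readings. Of 7 tested genes of group 2 innate lymphoid cells, a list that holds Gata3 and Il1rl1, 0 were called between ovary and spleen in either subset, and 0 of 4 tested eosinophil genes were. Of 10 genes of type 1 effector cells, 1 (Lta) was higher in the ovary in each subset.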

How the data were processed

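RNA of sorted donor T cells was hybridised to 16 one-colour Cy3 arrays. Agilent Feature Extraction 11.5.1.1 made the deposited spot intensity values, which are background-subtracted, and the deposited flags for signals well above background, per the file headers. The 6 genes and all gene lists were chosen with earlier results of these data known.

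Spots of a probe were averaged on the log2 scale after shifting each array to its 75th percentile. This shift was computed here from the deposited intensity values, and the deposited log2 table of the series, whose centring is by probe median, correlated with it at r of at least 0.999821 per array. Control spots and outlier-flagged spots were left out. Accessions gave 27656 of 55681 probes a RefSeq symbol (GRCm38.p6), and 28025 had none. Per the file headers the array design used mouse build mm9, so no coordinate of the files was used. The probe with the highest mean over 16 arrays stood for a gene, and Il4 is the mean of 10 spots.

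A probe passed where all arrays of 1 or more groups had it well above background, which left 31120 probes and 22835 features, 13696 of them with a symbol. One limma 3.58.1 model (R 4.3.3) over 6 groups, with 10 residual and 2.16 prior degrees of freedom, gave all differences, and Benjamini-Hochberg adjustment ran over all features of a comparison. Folds against background limits set the brighter group's mean against the dimmer group's mean of, per array, the higher of its own value and the lowest signal well above background. They are not strict lower bounds, since some signals above that lowest one were not called well above background. The naming rule took all 6 members, some genes fixed by name, the called genes of each list (the 4 with the smallest p where more were called) and the 3 nearest profiles of each called member. Values are printed for part of the listed genes, a selection made after their values were seen. The number of arrays limits the precision. The fit was tested on simulated data. Alternatives were another background correction (normexp on median signals, the mean signal column not being used here), quantile normalization, filters, slides, replicate blocks and left-out arrays. Signal floors, each Il1rl1 probe, the median of spots and the removal of spots in uneven areas were chosen after seeing the data.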

Additional observations from a re-analysis of the deposited data

Results flagged for a closer look

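The transplant difference of Il1rl1 was not the same in the 2 splenic subsets: the CD8+ minus CD4+ difference of allogeneic minus syngeneic values was 4.60 (log2), past the threshold of the test of that difference. In ovarian CD8+ cells 1 of the 4 arrays stood apart for Gata3: the gap of replicate 3, at 3.80, to the next array made up 0.949 of the group's whole range, above the 95% critical value of Dixon's test for 4 samples. Chance flags about 1 in 20 groups in this way.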

How the results depend on the processing

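Of 1028 differences of single members under an alternative, 878 kept their direction and side of the threshold, 62 lost the call, 19 gained it, 59 changed sign and 10 were 0 because both groups lay on a signal floor. The number of members called changed by over 1.5 times as follows, with the counts of 5 added. In ovarian against splenic CD8+ cells (1) it was 0 with normexp, with the filter on all 16 arrays, on slide 1 or slide 2 alone and with either signal floor. In ovarian against splenic CD4+ cells (1) it was 0 with normexp, the 16-array filter, slide 2 alone or only the groups compared. Leaving out single arrays kept both at 1. In allogeneic against syngeneic CD8+ cells (3) it was 1 with the 16-array filter and slide 2 alone, and 2 to 3 without single arrays. In CD4+ cells (1) it was 0 without the filter, with the 16-array filter, slide 2 alone, only the groups compared, the median of spots or no spots in uneven areas, 2 with the slide block and on slide 1 alone, and 0 without any single array of its groups. In ovarian CD8+ against CD4+ cells (4) it was 1 with the 16-array filter, 0 on slide 2 alone, 5 without the filter and with the slide or replicate block, and 4 to 5 without single arrays. In the allogeneic spleen (4) it was 2 with normexp or without the 2 dimmest arrays, 1 with the 16-array filter or only the groups compared, 0 on slide 2 alone, 5 with the slide or replicate block and 2 to 4 without single arrays. In the syngeneic spleen (4) it was 1 with the 16-array filter, 2 on slide 1 alone, 0 on slide 2 alone, 5 with the slide or replicate block and 3 to 4 without single arrays. For the difference of tissue differences (0) it was 1 with either signal floor and 0 to 1 without single arrays. For that of transplant differences (1) it was 2 with quantile normalization or either floor and 0 with the 16-array filter or slide 2 alone. The 16-array filter tests 1 member, Gata3. The causes of the other changes were not tested.

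Signs changed in 17 differences, of which 0 were called in the report's own setting or where the sign changed. In ovarian against splenic CD8+ cells Il4 read 0.11 with normexp, 0.017 on slide 2, 0.050 by the median of spots and -0.55 to 0.24 over left-out arrays, Gata3 read -0.024 with quantile normalization, -0.031 with normexp, -0.24 on slide 1 and -0.19 to 0.16 over left-out arrays, Areg read -1.60 to 0.034 over left-out arrays, and the second Il1rl1 probe read 0.28. In ovarian against splenic CD4+ cells Il4 read 1.08 on slide 1 and without the 2 dimmest arrays, and -1.27 to 0.68 over left-out arrays, Gata3 read -0.013 under the same 2 settings, and Areg read 0.079 with normexp, 0.16 on slide 2 and -1.10 to 0.62 over left-out arrays. In allogeneic against syngeneic CD8+ cells Il13 read -0.31 with normexp, and Il4 read 0.37 with quantile normalization, 0.14 with the slide block, 0.27 on slide 1, 0.18 on slide 2 and -0.35 to 0.25 over left-out arrays. In CD4+ cells Il13 read 0.54 with normexp, 0.33 on slide 2, 0.64 without spots in uneven areas and -1.18 to 0.64 over left-out arrays, and Il1rl1 read -0.47 with normexp, -0.31 on slide 1 and -0.33 to 0.85 over left-out arrays. The difference of tissue differences of Il4 was -1.60 on slide 1, -1.20 without the 2 dimmest arrays and -0.80 to 1.15 over left-out arrays, that of Gata3 0.15 on slide 2, 0.022 without the 2 dimmest arrays and -0.33 to 0.013 over left-out arrays, that of Areg 0.055 on slide 1 and -1.51 to 0.27 over left-out arrays, and that of the second Il1rl1 probe 0.13. The difference of transplant differences of Il13 was -0.85 with normexp, -0.13 on slide 2, -0.18 without spots in uneven areas and -0.18 to 1.63 over left-out arrays, and that of Areg -0.69 with normexp, -0.94 with either floor and -0.45 to 1.96 over left-out arrays. The deviations of same-numbered arrays correlated at -0.27 to 0.45 in the 13 pairs on 1 slide, 12 of them above 0, and at -0.44 to 0.050 in the 3 pairs on different slides, so number and slide overlap. Since not every pair reached 0.1, the numbers were not taken to pair the samples. With the replicate block 2 members were called in allogeneic against syngeneic CD4+ cells, and Areg read -3.30 in ovarian (adjusted p = 0.0103), -2.77 in allogeneic splenic (adjusted p = 0.00960) and -3.53 in syngeneic splenic (adjusted p = 0.0143) CD8+ against CD4+ cells. Normexp gave a median over all features of -0.26 in allogeneic splenic CD8+ against CD4+ cells, where it was otherwise -0.06, and of 0.19 in allogeneic against syngeneic CD4+ cells.

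Signals near background limit Il13 in CD8+ cells and splenic cells, Il4 in CD8+ cells, Il5 everywhere and Areg in syngeneic CD8+ cells, and groups of 2 arrays limit every CD4+ comparison.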
